A study of Mus musculus with 2 samples.

Results

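Gene desert peaks were taken as autosomal DNase-seq peaks of replicate 2 that overlapped a replicate 1 peak by at least 1 bp, with a centre outside every protein-coding gene and over 200 kb from any protein-coding transcript start. By this rule 18761 of 167363 shared autosomal peaks were desert peaks (11.2%, 95% exact binomial interval 11.1% to 11.4%, which like all intervals below covers counting error only). The rule used positions and did not read the peak value. Peaks of higher value overlapped a replicate 1 peak more often, so the overlap step favoured them, as given below. DNase-seq reads the cuts that the nuclease DNase I makes in accessible DNA, and a peak is a short stretch where the cuts pile up. The tissue was midbrain from B6NCrl mouse embryos at day 14.5 of gestation, males and females pooled, and the labels name no treatment and no altered allele. There were 2 biological replicates of 1 group, entered as separate biosamples of a single donor record, and how far their differences are technical is not known.

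Gene deserts are long stretches of the genome that hold no protein-coding gene. Many lie beside genes that direct development, and some carry enhancers, DNA elements that raise the transcription of a gene from far away through looping of the chromatin. Open chromatin in a desert can also mark the promoter of a long noncoding RNA or a microRNA gene, or a site of the insulator protein CTCF. The files used here hold no measure of which gene a peak acts on, so the flanking genes are named by position alone.

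The lists held 689185 autosomal peaks in replicate 1, with a median value of 6, and 260938 in replicate 2, with a median value of 52. The values are the authors' own and share no stated scale, so they were compared within a replicate, or as percentiles of that replicate's autosomal peaks. Promoters of the midbrain genes En1, En2, Otx2, Pax7 and Lmx1b each held a shared peak, with values of 32 to 111 in replicate 1 and 96 to 141 in replicate 2. The liver gene Alb, the erythroid gene Hbb-bt, the muscle gene Myh3 and the skin gene Krt5 had none. In a bulk tissue a low value can come from fewer cells with the site open or from less cutting per cell, and these cannot be told apart.

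Sequences of 4 desert peaks are given first, from GRCm38.p6 (mm10), plus strand, 5′ to 3′. The first 2 were among the 4 peaks with the highest mean percentile, the next was a strong peak with a match to the CTCF core motif, and the last lay farthest from any protein-coding start. Capitals mark exact matches, on either strand, to any of the 22 motifs counted later.
Between Eipr1 and Myt1l, chr12:29291036-29291185: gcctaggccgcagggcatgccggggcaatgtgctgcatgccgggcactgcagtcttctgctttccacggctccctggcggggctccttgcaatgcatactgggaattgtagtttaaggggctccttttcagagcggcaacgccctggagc
Between Adamts6 and Cwc27, chr13:104518436-104518585: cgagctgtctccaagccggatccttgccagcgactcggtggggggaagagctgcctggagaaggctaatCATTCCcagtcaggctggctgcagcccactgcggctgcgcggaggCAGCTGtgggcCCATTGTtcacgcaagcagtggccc
Between Tmem161b and Ccnh, chr13:84758616-84758765: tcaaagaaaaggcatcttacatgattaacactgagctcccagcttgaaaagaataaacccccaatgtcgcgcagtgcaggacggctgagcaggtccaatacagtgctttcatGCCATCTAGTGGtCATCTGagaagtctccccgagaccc
Between Pcdh20 and Pcdh9, chr14:91150256-91150405: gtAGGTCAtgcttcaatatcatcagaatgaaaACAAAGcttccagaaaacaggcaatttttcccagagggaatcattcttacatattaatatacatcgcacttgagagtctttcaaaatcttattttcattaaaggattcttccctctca

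Both strong peaks were rich in G and C, at 62% and 65.3%, and the farthest one was poor, at 34%. The first had no match to any of the 22 motifs. In the second the capitals are TEAD, E-box and SOX matches in that order. In the peak between Tmem161b and Ccnh the CTCF core match is followed by an E-box.

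A second set shows desert peaks at microRNA genes, again from GRCm38.p6, plus strand, with capitals for the bases inside the annotated hairpin gene. The miR-344 genes lie in tandem between Snrpn and Ndn, so their peaks can be read against each other.
Mir344, chr7:61877836-61877985: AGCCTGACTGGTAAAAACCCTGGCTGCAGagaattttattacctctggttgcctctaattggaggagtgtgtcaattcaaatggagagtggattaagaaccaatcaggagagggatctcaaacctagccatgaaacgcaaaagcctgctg
Mir344-2, chr7:61940116-61940265: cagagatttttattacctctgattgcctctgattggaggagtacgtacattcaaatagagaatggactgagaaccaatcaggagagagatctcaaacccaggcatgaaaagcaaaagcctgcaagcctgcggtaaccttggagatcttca
Mir344i, chr7:62085236-62085385: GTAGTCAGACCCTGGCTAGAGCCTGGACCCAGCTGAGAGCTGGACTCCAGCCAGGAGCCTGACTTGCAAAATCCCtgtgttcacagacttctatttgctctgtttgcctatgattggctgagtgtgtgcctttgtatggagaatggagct
Mir181b-1, chr1:137966556-137966705: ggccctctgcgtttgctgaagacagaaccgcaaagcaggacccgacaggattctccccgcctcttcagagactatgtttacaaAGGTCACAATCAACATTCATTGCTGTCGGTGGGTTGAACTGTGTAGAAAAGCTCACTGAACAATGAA
Mir125b-1, chr9:41581836-41581985: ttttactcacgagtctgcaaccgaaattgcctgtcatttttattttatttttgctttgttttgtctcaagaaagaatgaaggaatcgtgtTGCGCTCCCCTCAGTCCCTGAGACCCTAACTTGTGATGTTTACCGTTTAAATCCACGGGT

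A selection of mature microRNAs of these genes and of others in the same deserts follows, from RefSeq on GRCm38.p6. Capitals mark the seed (bases 2 to 8, the part that pairs with target transcripts). The miR-344 5p arms shown share a seed, miR-344-3p and miR-344c-3p share another, and miR-181a and miR-181b share a seed of their own. The miR-344 family as a whole does not share a seed. Of the arms not shown, miR-344d-1-5p and miR-344d-3-5p have the 5p seed shown, while miR-344f-5p, miR-344h-5p and miR-344i have others. The 3p arms of miR-344b, miR-344d, miR-344f, miR-344g and miR-344h also differ in seed from the 3p arms shown.
mmu-miR-344-5p: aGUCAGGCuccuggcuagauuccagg
mmu-miR-344b-5p: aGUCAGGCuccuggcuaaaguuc
mmu-miR-344c-5p: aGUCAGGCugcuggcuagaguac
mmu-miR-344g-5p: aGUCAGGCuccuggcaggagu
mmu-miR-344-3p: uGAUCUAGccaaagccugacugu
mmu-miR-344c-3p: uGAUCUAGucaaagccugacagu
mmu-miR-181a-5p: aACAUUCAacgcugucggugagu
mmu-miR-181b-5p: aACAUUCAuugcugucgguggguu
mmu-miR-125b-5p: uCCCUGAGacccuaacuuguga
mmu-miR-100-5p: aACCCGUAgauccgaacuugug

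Desert peaks were sparse for the length of sequence they lay in. The rule left 926 separate deserts with 528 Mb of known bases, 22% of the 2396 Mb of the autosomes. They held 35.5 shared peaks per Mb, against 79.6 per Mb in the remaining autosomal sequence, a ratio of 0.446. With the sequence within 1 kb of a start set aside, the remaining autosomes held 65.8 distal peaks per Mb, and the ratio was 0.54. Density differed between chromosomes, from 25 desert peaks per Mb on chromosome 17 and 25.7 on chromosome 6 to 46.8 on chromosome 9 and 47.8 on chromosome 13. On each of the 19 autosomes the desert density lay below that of the chromosome's other sequence, which ran from 69.3 to 102 per Mb.

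The peaks were spread over most deserts but unevenly. Of the 926 deserts, 821 (88.7%) held at least 1 peak, and the median was 11. The 926 include some stretches without known bases, where no peak could be placed. The 96 deserts with 50 or more peaks held 7399 desert peaks, 39.4% of all. Among 333 deserts with at least 500 kb of known bases the density ran from 0 to 249 per Mb, with a median of 27.7 and quartiles of 17.9 and 45.8, and 12 exceeded 100 per Mb. Long deserts could hold few peaks and short ones many.

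**Figure D1:**
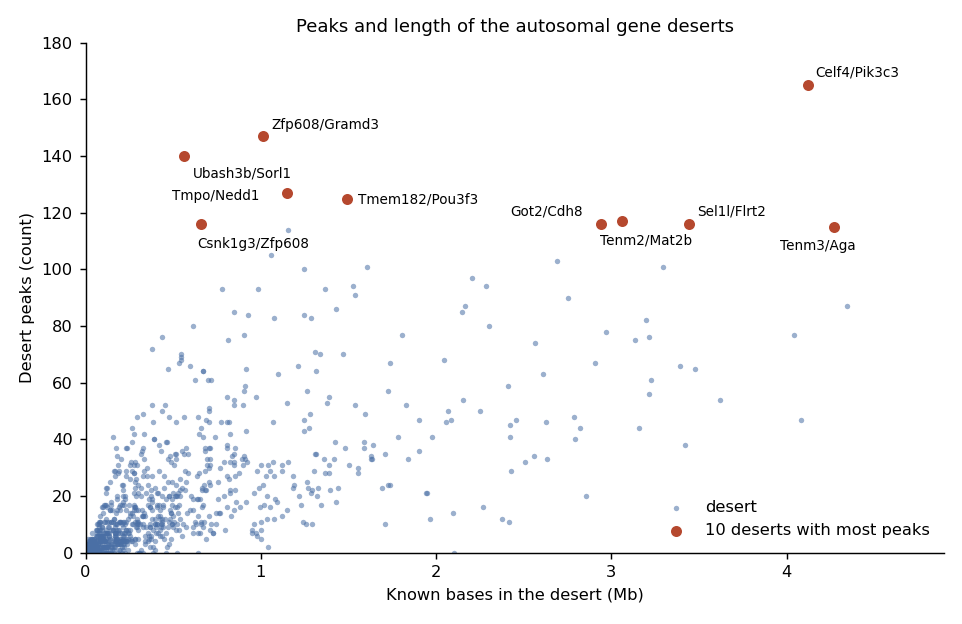
Each point is one of the 926 autosomal gene deserts, with its known bases in Mb on the horizontal axis and its count of desert peaks on the vertical axis. The 10 deserts with most peaks, in red and named by their flanking genes, span 0.563 to 4.27 Mb, and the desert between Ubash3b and Sorl1 reached 140 peaks in the shortest length of the 10.

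The 10 deserts with most peaks held 1284 desert peaks, 6.84% of all, in 4.3% of desert sequence. The highest count was 165, in the desert between Celf4, an RNA-binding protein of neurons, and Pik3c3, a lipid kinase of autophagy (chr18:25954158-30072746, 4.12 Mb). Peak values there ran from 2 to 90 in replicate 1 and from 20 to 131 in replicate 2, with medians of 14 and 47, close to the desert medians of 15 and 51. Of its peaks, 82 had no other desert peak within 5 kb, and the density was 40.1 per Mb.

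Both deserts around Zfp608, a zinc finger gene, were among the 10. The one between Zfp608 and Gramd3 (chr18:55190167-56200336) held 147 peaks at 146 per Mb, and the one between Csnk1g3 and Zfp608 (chr18:54132245-54790165) held 116 at 176 per Mb. Median values were 19 and 17 in replicate 1 and 65 and 66 in replicate 2, all above the desert medians. The strongest peak of the first, 560 kb from the nearest protein-coding start, had values of 101 and 145. The promoter of Zfp608 had values of 115 and 140.

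The desert between Ubash3b, a protein tyrosine phosphatase, and Sorl1, a sorting receptor of the endosome, was the densest of all with 500 kb or more (chr9:41361689-41924296). Its 140 peaks in 0.563 Mb gave 249 per Mb. The microRNA genes Mir100, Mirlet7a-2 and Mir125b-1 lie in it. Values ran from 4 to 116 in replicate 1 and from 26 to 141 in replicate 2, with medians of 19 and 69. Peaks were more numerous on the Ubash3b side, with 94 in the left part and 46 in the right part when the desert was divided at its midpoint. The peaks in the highest 10% of all shared autosomal peaks by mean percentile numbered 13 here, against 0 to 5 in each of the other 9 deserts.

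The desert between Tmpo, a protein of the nuclear lamina, and Nedd1, a centrosome protein (chr10:91371583-92522419), held 127 peaks at 110 per Mb. It contains Rmst, a long noncoding RNA of neural progenitors, and Mir135a-2 and Mir1251. Of the peaks, 27 lay inside the body of Rmst, and 20 formed 1 group of 15.5 kb that overlaps it, with median values of 21.5 and 65.5. The strongest peak, with 80 and 125, lay 375 kb from the nearest protein-coding start.

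The desert between Tmem182 and Pou3f3, a POU transcription factor of the developing brain (chr1:41005602-42495767), held 125 peaks at 83.9 per Mb. The Pou3f3 promoter had values of 112 and 145, and no shared peak lay within 1 kb of a start of Tmem182. Its desert peaks lay on both sides of the midpoint, 60 on the Tmem182 side and 65 on the Pou3f3 side. The strongest, with values of 84 and 127, was 885 kb from the nearest start.

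The other 4 were long and had fewer peaks per Mb, and each lay beside a gene of neuronal cell adhesion. The teneurin gene Tenm2 and Mat2b, a subunit of methionine adenosyltransferase, flanked 117 peaks at 38.3 per Mb (chr11:37435883-40492773). The mitochondrial enzyme gene Got2 and the cadherin gene Cdh8 flanked 116 at 39.5 per Mb (chr8:96088548-99024470), and Sel1l, of protein degradation in the endoplasmic reticulum, and Flrt2, an adhesion gene, flanked 116 at 33.7 per Mb (chr12:92049158-95492225). The teneurin gene Tenm3 and the lysosomal enzyme gene Aga flanked 115 at 26.9 per Mb (chr8:49043952-53311726). In that desert 94 peaks lay on the Tenm3 side of the midpoint and 21 on the Aga side. Between Got2 and Cdh8 the left part held 83 and the right part 33. Between Tenm2 and Mat2b the order was the other way, with 43 on the Tenm2 side and 74 on the Mat2b side, and a stretch of 335 kb held none.

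**Figure D2:**
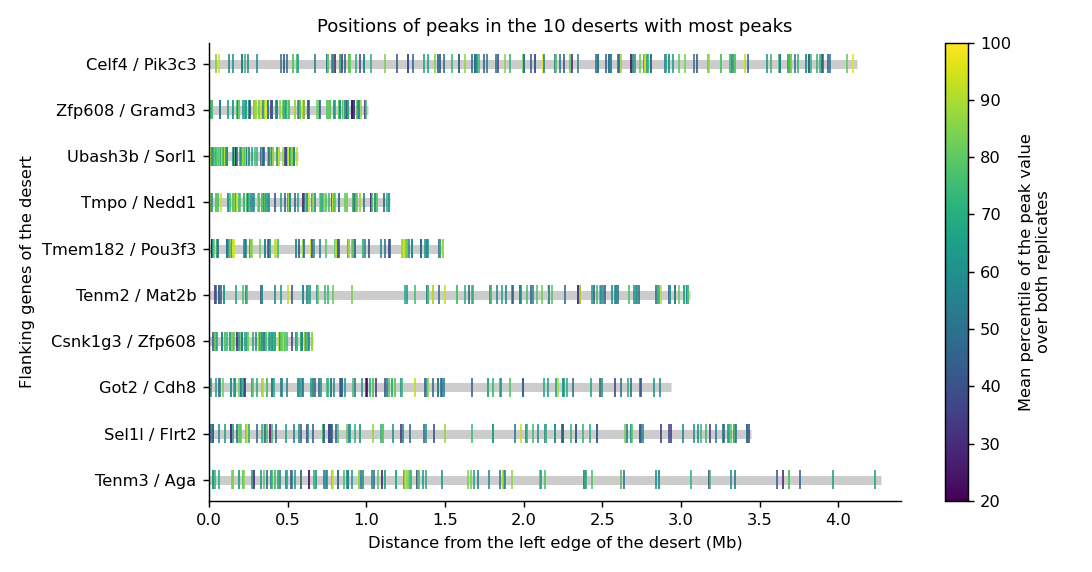
Each row is one of the 10 deserts with most peaks, named by its flanking genes, with the distance from its left edge in Mb on the horizontal axis, a tick for each desert peak and colour for the mean percentile of the peak value over both replicates (20 or less to 100). Ticks crowd the short deserts between Ubash3b and Sorl1 and beside Zfp608, and thin out towards Aga, where 21 of 115 peaks lie right of the midpoint.

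Of the 10 densest deserts with 500 kb or more of known bases, 4 were also among the 10 with most peaks. The other 6 ran from 119 to 131 per Mb. The cadherin genes Cdh26 and Cdh4 flanked 80 peaks (chr2:178630608-179242430, 131 per Mb), and Cd83 and Jarid2, a partner of a Polycomb repressive complex, flanked 70 (chr13:43984776-44529534, 128 per Mb). Rps24 and Zmiz1 flanked 69 (chr14:24690768-25259223, 127 per Mb), whose median values of 20 and 74 were the highest of the 10 in replicate 2. Lrig3 and Atp23 flanked 67 (chr10:126166254-126701347, 125 per Mb), with medians of 13 and 53. Kazn and Prdm2 flanked 68 (chr4:142439402-142994734, 125 per Mb), and Mki67 and Mgmt flanked 93 (chr7:135916362-136694613, 119 per Mb).

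At the other end, 105 deserts held no shared peak. Some of these, such as that between Mup22 and Mup13 and several at chromosome ends, held no known bases, so no peak could be placed there. The 105 were short, with a median of 18.5 kb of known bases, those stretches included, and 9.18 Mb in all. The longest by far, 2.1 Mb between Adam6a and Zfp386 (chr12:113743909-115847723), contains the variable segments of the immunoglobulin heavy chain, genes that are rearranged in B cells. The next 4 lay between Gm12887 and 9530002B09Rik (chr4:121822104-122489274), between 9130204L05Rik and Pglyrp3 (chr3:91290804-91814582), between Klra1 and Klra2, of the natural killer cell receptors (chr6:130586875-131047361), and between Gm5591 and Gm5114 (chr7:38728194-39213159). Among deserts over 2 Mb the sparsest with any peak lay between Lrfn5 and Fscb (chr12:61858343-64274689), where 11 peaks in 2.42 Mb gave 4.55 per Mb, with median values of 13 and 37. Whether reads can be placed uniquely in these stretches was not tested.

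Developmental transcription factor genes were more frequent beside the deserts with most peaks per Mb, and none stood beside the sparsest. The 333 deserts of 500 kb or more were ranked by peaks per Mb, and their nearest protein-coding genes were counted in 5 lists of gene families. Of the 607 flanking genes 38 were developmental transcription factors (6.26%, 4.47% to 8.49%), against 348 of 20780 autosomal protein-coding genes (1.67%). Beside the 83 densest deserts, all at or above 46.1 per Mb, 25 of 161 flanking genes were on this list (15.5%, 10.3% to 22.1%). Beside the 83 sparsest, at or below 17.6 per Mb, it was 0 of 160, with an upper limit of 2.28%. The median density was 61.3 per Mb in the 39 deserts with such a gene on a side and 25.2 in the others. Examples are Id4, an inhibitor of basic helix-loop-helix factors (64 peaks at 95.9 per Mb between Rnf144b and Id4), the zinc finger genes Sall3 (93 at 94.5 between Sall3 and Galr1) and Sall1 (77 at 85.2 between Sall1 and Tox3), and the homeobox gene Irx1 (61 at 85 between Adamts16 and Irx1).

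Genes of neuronal adhesion and axon guidance were common beside deserts of either kind. They made up 65 of the 607 flanking genes (10.7%, 8.36% to 13.4%), against 1.03% of all genes, with 16 of 161 beside the 83 densest (9.94%, 5.79% to 15.6%) and 21 of 160 beside the 83 sparsest (13.1%, 8.31% to 19.4%). The intervals overlap. Median density was 24.5 per Mb with such a gene on a side and 29.6 without. Among the densest were the deserts between Camk1g and the plexin gene Plxna2 (85 peaks at 100 per Mb), between Pard3 and Nrp1, a receptor of semaphorins (35 at 68.4), and between the guidance receptor genes Robo1 and Robo2 (44 at 66.6).

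The remaining lists were smaller. Ion channels and transmitter receptors numbered 23 of 607 (3.79%, 2.42% to 5.63%), with 3 of 161 beside the densest and 9 of 160 beside the sparsest, and the intervals of those shares overlap. Secreted developmental signals numbered 5, with 0 beside the densest and 2 beside the sparsest. Their deserts were those beside Fgf12 (22 peaks at 38.6 per Mb), Bmp2 (20 at 33.2), Fgf9 (16 at 24), Gdf6 (10 at 15.9) and Inhba (7 at 10.9). Sensory and immune gene families gave 1 flanking gene, Olfr1507, though they make up 7.74% of autosomal genes. Deserts that share a flanking gene are not independent, and no test was made of these shares.

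Most desert peaks lay within 500 kb of a protein-coding start. The median distance to a protein-coding start was 370 kb and the largest 2679 kb. From 200 to 300 kb there were 6464 peaks, from 300 to 500 kb 6434, from 500 to 1000 kb 4530, and 1333 (7.11%) lay farther than that. The median value fell from 15 and 54 in the nearest of these bins to 14 and 45 in the farthest, in replicates 1 and 2. Intergenic shared peaks at 1 to 10 kb had medians of 21 and 71. At the limit itself there was no step: the 69 desert peaks in the first 1000 bp past 200 kb had medians of 15 and 54, and the 81 intergenic peaks in the last 1000 bp before it had medians of 15 and 53. The mean GC content also fell over the bins, from 47.1% to 42.2%, and its part in the fall of the values was not tested.

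The 5 peaks farthest from any protein-coding start all lay in the desert between the protocadherin genes Pcdh20 and Pcdh9 on chromosome 14, 2515 to 2679 kb away. Their values were 13, 15, 12, 33 and 11 in replicate 1 and 44, 56, 41, 89 and 41 in replicate 2, from the farthest to the nearest. The fourth (chr14:91014836-91014985), at 33 and 89, was well above both desert medians, and the others were near or below them.

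Desert peaks were lower than other distal peaks in both replicates. In replicate 1 the median was 15 (quartiles 10 and 23, highest 129) against 18 for the 118781 other distal peaks, and 43 for the 29821 peaks within 1 kb of a start. In replicate 2 the medians were 51 (quartiles 39 and 69, highest 146), 62 and 109. As percentiles of each replicate's list, the desert medians were 82.5 and 49.2, and the other distal ones 85.9 and 62. The distributions overlap over nearly their whole range. Of the desert peaks 267 (1.42%) lay in the highest 10% of shared peaks by mean percentile, against 4.07% of other distal peaks. Spearman's rank correlation between the replicate values was 0.814 over the 18761 desert peaks and 0.875 over the other distal peaks, as a description over peaks of the same 2 libraries.

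**Figure D3:**
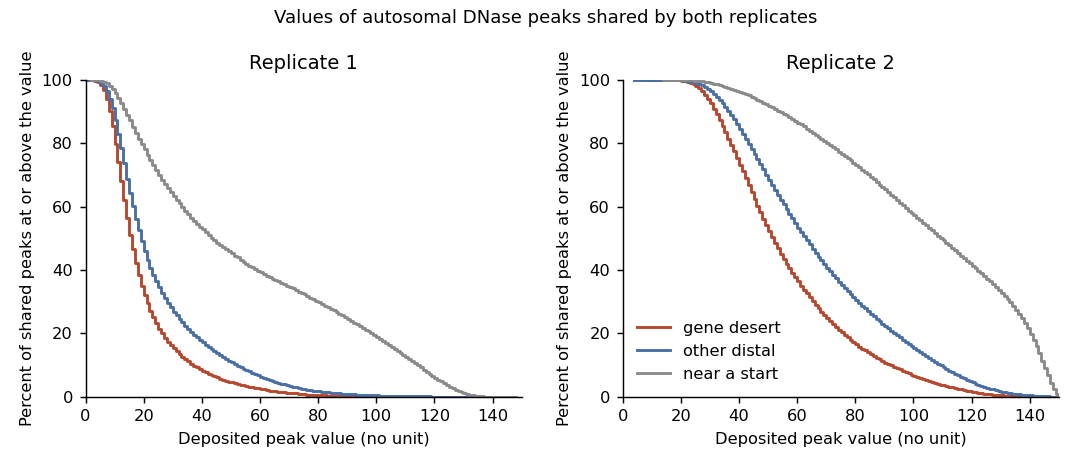
For autosomal peaks shared by both replicates, the curves give the percent of peaks (vertical axis) at or above each deposited peak value (horizontal axis, no unit) in gene deserts, at other distal sites and within 1 kb of a protein-coding start. The desert curve lies below the other distal curve in both replicates, with medians of 15 against 18 and 51 against 62.

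The 10 strongest desert peaks had values of 88 to 129 in replicate 1 and 141 to 146 in replicate 2, so all lay above the median of peaks near a start in both. The strongest, with 129 and 146, lay 237 kb from the nearest start, between Eipr1 and Myt1l, a neuronal zinc finger transcription factor. A peak between Zfp608 and Gramd3 had 101 and 145, and the peak between Adamts6 and Cwc27 had 117 and 142. Those between Ubash3b and Sorl1 (chr9:41736036-41736185, 116 and 141) and between Ppp2r3a and 9630041A04Rik (chr9:101690236-101690385, 107 and 142) had no annotated start within 1 kb. The peak between Ubash3b and Sorl1 lay inside the body of the long noncoding RNA gene Gm35835.

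For 4 of the 10 an annotated transcript start lay within 1 kb. The peak between Sox9, a regulator of glia and cartilage, and Slc39a11 (chr11:113201776-113201925, 93 and 144) lay 13 bp from a start of the long noncoding RNA gene 2610035D17Rik. The peak between Nr5a2 and Ptprc (chr1:137898496-137898645, 106 and 143) lay 24 bp from a start of Gm4258, a gene typed as processed transcript. The peak between Pcmtd1 and Sntg1 (chr1:7397956-7398105, 121 and 141) lay 162 bp from a start of the long intergenic RNA gene Gm26901. The peak beside Ptprd, a receptor phosphatase of synapses (chr4:78211956-78212105, 88 and 145), lay 70 bp from a start of Ptprd itself, of a transcript that the annotation does not type as protein-coding. It counts as a desert peak only because the rule uses starts of protein-coding transcripts. In all 9 desert peaks were of this sort, 8 of them nearest to starts of Ptprd, Nav3, Sox5, Naaladl2 and Sema3a and 1 between Cdh10 and Cdh12.

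Few desert peaks sat at noncoding gene starts. Within 1 kb of a start of a long noncoding RNA gene lay 470 (2.51%, 2.29% to 2.74%), against 2498 of 53589 intergenic distal peaks nearer to genes (4.66%, 4.48% to 4.84%). Such starts cover 0.496% of desert sequence. Inside the body of such a gene lay 2757 (14.7%), where bodies cover 9.23% of desert sequence, and 14.9% of the intergenic distal peaks did. Desert peaks at these starts had median values of 20.5 and 68.5, and the other desert peaks had 15 and 50. Pseudogenes had 80 desert peaks at a start (0.426%) and 48 in the body (0.256%). Both shares lay below those of desert sequence, where their starts cover 0.776% and their bodies 0.806%.

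The desert peaks at long noncoding RNA starts belonged to 277 genes by nearest start, of which 9 carried a symbol other than a Gm or Rik number. Mir99ahg, the host of a microRNA cluster, had 9 desert peaks within 1 kb of its starts, the strongest with 100 and 134 (chr16:77237036-77237185, between Usp25 and Cxadr). Rmst had 10, the strongest with 76 and 125. Epb41l4aos had 1, with 93 and 138. Celrr, a long noncoding RNA gene between the midbrain regulator En1 and Insig2, had 2, the strongest with 41 and 85 and 236 kb from a protein-coding start.

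The deserts contain 175 annotated microRNA genes, and 26 of them had the centre of a desert peak within 1 kb of their 5′ end. For small RNA genes as a class, 64 desert peaks lay within 1 kb of a start (0.341%, 0.263% to 0.435%). Such starts cover 0.312% of desert sequence, so the share was near that of the bases. Among intergenic distal peaks it was 0.864%. Of the 26, 14 had a Mir symbol, and all 14 were in the RefSeq table. The miR-344 family gave 10 of these. Its 13 genes span 402 kb between Snrpn and Ndn, imprinted genes of the Prader-Willi region, in a desert with 77 peaks (chr7:60340220-62146568, 42.6 per Mb). At 9 of the 13 the nearest peak centre lay within 200 bp of the 5′ end. In replicates 1 and 2 the nearest peak had 64 and 114 at Mir344, 74 and 116 at Mir344-2, 60 and 99 at Mir344c, 57 and 103 at Mir344i and 51 and 107 at Mir344f. It was lower at Mir344d-1, with 14 and 39, at Mir344d-3, with 19 and 59, and at Mir344b, with 19 and 62. The 13 desert peaks within 1 kb of a family member had median values of 39 and 73, and the rest of that desert had 13.5 and 42.5.

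Some of the peaks at the miR-344 genes closely resembled each other in sequence. Local alignment of the 9 peaks within 200 bp of a family member gave 36 pairs with 45 to 117 identical bases, a median of 81, and 5 pairs had 100 or more. Alignments of unrelated desert peaks are not given for comparison, so the low end of this range is not read as likeness. Mir344 and Mir344-2, both printed above, shared 107 bases over 122 aligned positions (87.7%), and the Mir344-2 peak holds 0 bases of its hairpin and the Mir344 peak 29. How the authors treated reads that fit more than 1 copy is not given in the sources used here, so the values of single copies are uncertain.

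Among other microRNA genes, Mir181a-1 and Mir181b-1 lie together between Nr5a2 and Ptprc, with nearest peaks of 30 and 91 and of 29 and 76. The peak at Mir125b-1 had 24 and 76, had its centre 15 bp from the 5′ end and covered 60 bases of the hairpin. Within 10 kb of Mir125b-1 there were 26 desert peaks. Mir802, between Runx1 and Setd4, had a peak with 13 and 65.

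Desert peaks often came in groups. Linking desert peaks with centres up to 5 kb apart gave 11880 groups, of which 8010 were single peaks (42.7% of desert peaks), and 1533 groups of 3 or more held 6077 (32.4%). A shared peak lay within 5 kb of 57.5% of desert peaks and of 70.6% of intergenic distal peaks. Median values were 14 and 47 for single peaks and 18 and 62 for those in groups of 5 or more. The largest group was the 35 peaks in 20.1 kb around Mir125b-1 (chr9:41575956-41596025), with median values of 24 and 79. Next came 24 peaks in 15.7 kb between Ythdf3 and Cypt12 (chr3:17317616-17333285, medians 19.5 and 70.5). Between the homeobox genes Irx1 and Irx2 lay 22 in 23.2 kb (chr13:72280436-72303645, medians 24 and 82.5). Then came the 20 of the group that overlaps Rmst, and 19 in 20.8 kb between Mef2c, a transcription factor of neurons and muscle, and Tmem161b (chr13:83865416-83886165, medians 22 and 68). The 14 peaks in 7.31 kb between Hpcal1 and Asap2 (chr12:20226956-20234265) differed, with values of only 3 to 10 in replicate 1 and 13 to 35 in replicate 2.

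How often a replicate 2 peak also appeared in replicate 1 depended on its value. Over all values 18761 of 31578 replicate 2 peaks in desert sequence overlapped a replicate 1 peak (59.4%, 58.9% to 60%), against 62.6% of other distal peaks. Within a band of value the order was reversed: over 40 and up to 50 the share was 62.5% (61.3% to 63.7%) in deserts and 53.6% (53.1% to 54.1%) at other distal sites, and over 60 and up to 80 it was 90.3% against 86.5%. Over 80 and up to 100 the intervals overlapped, at 95.1% and 95.6%, and over 120 the share was 99.3% in deserts. In the other direction 19289 of 120310 replicate 1 peaks in deserts overlapped a replicate 2 peak (16%), against 23.3% of other distal ones. The peak lists differ greatly in length, so these shares describe the lists as deposited.

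**Figure D4:**
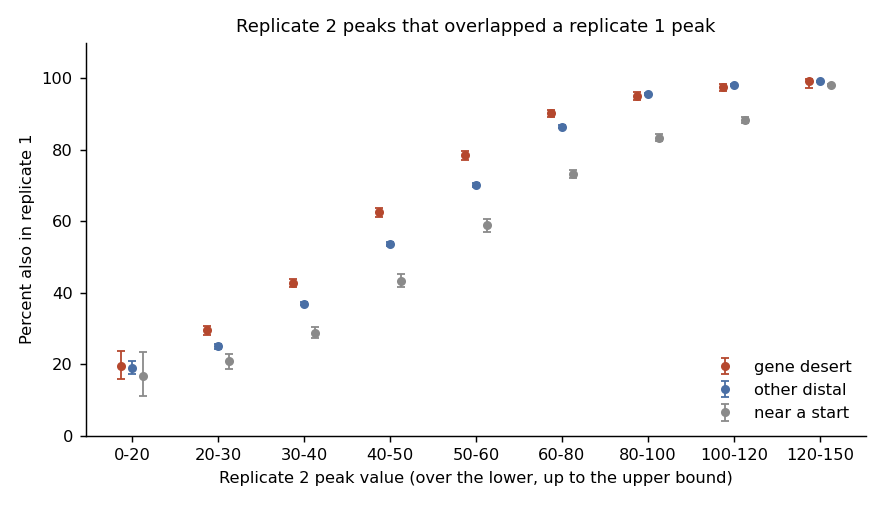
For bands of replicate 2 peak value (horizontal axis), the points give the percent of replicate 2 peaks (vertical axis) that overlapped a replicate 1 peak, in gene deserts, at other distal sites and near a start, with 95% exact binomial intervals as bars. Desert shares lie above other distal shares from 20 up to 80, for example 62.5% against 53.6% over 40 and up to 50, and the intervals overlap above 80.

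Desert peaks were richer in G and C than the sequence around them, yet poorer than other distal peaks. Their 150 bp windows had a mean GC content of 45.6% ± 6.22 (SD over 18761 windows), against 40.4% ± 8.07 in windows 1000 bp to each side, 50% ± 7.24 in other distal peaks and 62.2% ± 10.6 near starts. The deserts as a whole had 38.8%. Repeat-masked bases made up 7.87% of desert peaks, 23.8% of the windows beside them and 39.5% of desert sequence. In 20.3% of desert peaks there was no CpG, and 99 (0.528%) held 10 or more, as did 52.9% of peaks near starts. Median values were 13 and 44 in peaks with no CpG and 28 and 84 in those with 10 or more, of which 14 lay at a long noncoding RNA start (14.1%, against 1.16% of peaks with no CpG).

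Exact matches to 22 short motifs were counted on both strands, and 19 were more frequent in desert peaks than in the windows 1000 bp to each side. For 2 of them the intervals overlap: the cyclic AMP response element (0.123% against 0.0826%) and the NRF1 motif (0.0373% against 0.0107%). For the long SOX motif ACAATGG (2.71% against 2.33%) the intervals meet at 2.48%, so it is not clearly apart either. A match describes letters in a window and not a bound site. The E-box with letters CAGCTG, bound by basic helix-loop-helix factors, was in 14.5% of desert peaks (14% to 15%), 5.39% of windows beside them and 15.3% of other distal peaks. The single NFI site TTGGCA had shares of 14.4%, 7.66% and 12.9%. The proneural E-box CAGATG had 15.6%, 10.5% and 15.4%. The octamer ATGCAAAT, which POU factors bind, was in 2.78% of desert peaks, 1.25% of the windows and 1.95% of other distal peaks.

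Several motifs rich in A and T had higher shares in desert peaks than at other distal sites. The homeodomain motif TAATTA was in 8.4% of desert peaks (8.01% to 8.81%), 6.75% of windows beside them and 5.36% of other distal peaks. The short SOX motif ACAAAG had 17.2%, 13.8% and 15.4%. The TCF/LEF motif CTTTGAA, which shares letters with it, had 6.03%, 4.06% and 4.38%. The GATA motif AGATAA had 9.68%, 11.3% and 6.82%, so it was less frequent in desert peaks than beside them. The nuclear receptor motif AGGTCA, at 6.45%, and the MEF2 motif, at 0.341%, were also less frequent than beside the peaks, at 7.94% and 0.384%. For MEF2 the intervals overlap, at 0.263% to 0.435% and 0.324% to 0.452%. The MEF2 share was above that of windows 5000 bp to each side, at 0.333%. The windows differ in base composition, as given above, and its part in these shares was not tested.

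The CTCF core, the cyclic AMP response element and the GC box had the lowest shares relative to other distal peaks, with ratios of 0.316, 0.364 and 0.386. The CTCF core motif was in 284 desert peaks (1.51%, 1.34% to 1.7%) against 4.79% of other distal peaks, and in 0.0586% of windows beside desert peaks. Desert peaks with it had median values of 33 and 89, against 15 and 50 without. Among the 1880 desert peaks in the highest 10% of desert peaks by mean percentile the share was 7.45%, and among the 1898 in the lowest 10% it was 0.263%. The GC box GGGCGG was in 2.33% of desert peaks, 6.05% of other distal peaks and 38.9% of peaks near starts. The response element, TGACGTCA, was in 23 desert peaks (0.123%) against 0.337% at other distal sites. The RFX palindrome was in 40 desert peaks (0.213%) and in 0.00267% of the windows beside them, with 0.322% at other distal sites. The NFI palindrome, which contains the single site, was in 33 (0.176%) and in 0.00533% of windows, with 0.183% at other distal sites.

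**Figure D5:**
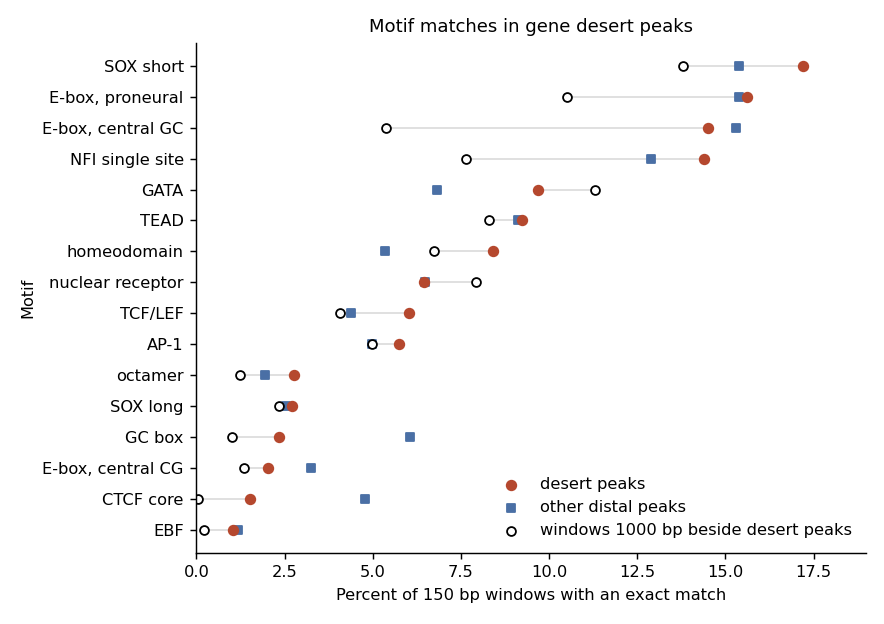
For each motif found in over 1% of desert peaks, the horizontal axis gives the percent of 150 bp windows with an exact match on either strand, in desert peaks (red), in other distal peaks (blue squares) and in windows 1000 bp to each side of desert peaks (open circles). The homeodomain share is 8.4% in desert peaks against 5.36% at other distal sites, and the CTCF core share is 1.51% against 4.79%.

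The homeodomain share was 7.87% and 7.9% in the bins up to 500 kb from protein-coding starts and 9.45% and 9.83% beyond. The CTCF core share was slightly lower in the farther bins, on few peaks. No intervals are given for these shares, so a direction is not established for either motif. Mean GC content fell from 47.1% to 42.2% over the same bins, and its part in these shares was not tested. From the bin of 200 to 300 kb to that beyond 1000 kb the homeodomain share went from 7.87% (509 peaks) to 9.83% (131 peaks), and the CTCF core share from 1.69% (109) to 1.28% (17). The share of desert peaks at a long noncoding RNA start went from 3.17% to 0.975%.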

How the data were processed

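DNase-seq of embryonic midbrain was deposited as peak and hotspot lists on mm10, called per replicate and not on pooled reads, per the file headers. The deposited peaks are 150 bp wide with a score of at most 150, the peak value, whose scale is not stated. The authors' hotspots carry a −log10 q with a cap of 100. Which aligner and caller were used is not given in the sources used here. Read depth is unknown.

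Annotation was GENCODE M21 and sequence GRCm38.p6, where 99.9% of 56865 autosomal start codons read ATG and no peak ran past a chromosome end. A start was that of a transcript typed protein-coding in a protein-coding gene. A desert is a maximal stretch that satisfies the rule. Peaks were ranked by mean percentile over both replicates. Motif windows were 150 bp about the centre. With 1 group of 2 replicates, no test was made: shares carry 95% exact binomial (Clopper-Pearson) intervals. Named were the 10 deserts with most peaks, the 10 densest with 500 kb or more, the 5 longest without a peak, the 10 strongest and 5 farthest peaks, their flanking genes, and peaks at microRNA genes. Among the 10 strongest peaks, 1 is not reported here by name. Other genes named (examples from the flanking gene lists, groups and noncoding starts) were chosen after their values were seen. The members, gene lists and motifs were chosen with earlier results of these data known.

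Alternatives were a 75 bp overlap, peaks at or above the median in both replicates, limits of 100 and 500 kb, starts of every gene class, gene 5′ ends, each replicate alone, wider windows and unknown bases. Scripts were tested on simulated data. Python 3.11.15 was used with pandas 2.3.3, numpy 2.4.6, biotite 1.4.0, scipy 1.17.1 and matplotlib 3.10.9.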

Additional observations from a re-analysis of the deposited data

How the results depend on the processing

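The count of desert peaks was 18761. It became 9104 with peaks at or above the median value in both replicates, 30312 at 100 kb, 5863 at 500 kb and 1287 with starts of every gene class, each by construction of the rule, and 31578 to 120310 with 1 replicate alone. The share of 11.2% became 18.1%, 3.5% and 0.769% under those 3 distance rules and 12.1% to 17.5% with 1 replicate. The density ratio of 0.446 stayed below 1 throughout, at 0.487 to 0.748 with 1 replicate. The ratio of the median desert value to the other distal median, 0.823 in replicate 2, also stayed below 1. It was 0.815 with a 75 bp overlap, 0.909 with the stricter values, 0.841 at 100 kb and 0.77 at 500 kb. With every gene class it was 0.783, and with any transcript start of a protein-coding gene (chosen after seeing the data) 0.806. With 1 replicate alone it was 0.833 to 0.84. Of the 10 deserts with most peaks, 6 stayed among the 10 at 500 kb, 1 with every gene class and 4 to 9 with 1 replicate. The share at or in long noncoding RNA genes, 15.7%, became 18.4% with the stricter values, 10.7% at 500 kb and 11.8% to 14.8% with 1 replicate. Mean GC content, 45.6%, was 40.4% to 45.2% with 1 replicate. The cause of these shifts was not tested. The number of motifs above the local windows was 19 at 1000 and at 5000 bp, but not the same ones: SOX long, at 2.71%, was above the windows at 1000 bp (2.33%) and below those at 5000 bp (2.82%), and MEF2 the reverse.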

Other observations

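Hotspots, the broader regions that the authors listed beside the peaks, were about as wide at desert peaks as at other distal peaks. In replicate 2 98.8% of desert peaks lay in a hotspot, and in replicate 1 90.7% did. The shares of other distal peaks were 99% and 92.4%. In replicate 2 the hotspot around a desert peak had a median width of 324 bp, against 358 bp at other distal peaks and 1612 bp near starts, and in replicate 1 the medians were 316, 331 and 908 bp. The hotspot −log10 q stood at its cap of 100 for 45.8% of desert peaks in replicate 2 and 38.5% in replicate 1, against 56% and 48.4% of other distal peaks. A single replicate 2 hotspot held up to 8 desert peaks.

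After the sequences of the strongest peaks were seen, 2 further motifs were counted. The core motif of ZNF143 was in 6 desert peaks (0.032%), among them the strongest one, between Eipr1 and Myt1l, against 0.869% of peaks near starts and 0.107% of other distal peaks. The YY1 motif ATGGCGGC was in 21 desert peaks (0.112%), among them that between Nr5a2 and Ptprc, against 1.61% near starts and 0.248% at other distal sites. These counts were chosen after seeing the data and describe letters in a window.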
